A study of Mus musculus with 16 samples.

Results

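The genes described here are 8 mouse genes that encode apolipoproteins or build and export the chylomicron, found in the tables by their symbols: Apob, Mttp, Sar1b, Apoa1, Apoa4, Apoc2, Apoc3 and Apoe. All 8 have a row in each of the 3 tables of normalized counts (duodenum, jejunum and ileum), out of 48440 genes listed, and all 8 passed the filter on low values in every segment. They were followed along the intestine and, within each segment, between mice given vertical sleeve gastrectomy (VSG), which removes most of the stomach along its greater curvature, and mice given sham surgery, in which the stomach was only pressed.

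RNA-Seq had been done on GFP+ cells sorted from female Lgr5eGFP mice, which express GFP from the Lgr5 locus, a stem cell gene. All mice, sham included, were kept on a diet with 60% fat for 16 weeks, and were studied 4 weeks after surgery, fasted overnight and given a liquid meal 15 minutes before death. The methods give an age of 8 to 16 weeks for all animals of the study. CD45+, CD31+, annexin V+ and dead cells were removed before the GFP sort. A library is 1 segment of 6 cm from 1 mouse. The duodenum and the jejunum have 4 VSG and 2 sham libraries each, from the same 6 mice, and the ileum has 2 VSG and 2 sham libraries. Replicates are numbered by mouse across segments, and VSG replicate 4 and sham replicates 1 and 2 are the 3 mice sampled in all segments.

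After a meal, enterocytes pack absorbed triglyceride into chylomicrons, each built around a single apoB chain. Mttp loads lipid onto apoB in the endoplasmic reticulum, Sar1b is the small GTPase that starts the COPII coat which carries the particle to the Golgi, and the smaller apolipoproteins ride on the particle surface and exchange between particles in plasma. These are genes of absorptive enterocytes rather than of stem cells, and sorted GFP+ fractions can carry their transcripts through progenitors and daughters that still hold GFP.

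The deposited values are DESeq2 normalized counts, scaled within each segment, and library totals ran from 21980005 to 51745619. The sorted fraction was mixed by its markers. The 12 enterocyte markers summed to between 198875 and 1431970.0 normalized counts per library and the 8 stem cell markers to between 5309 and 165499, while Lgr5 itself was listed at 0 in sham replicate 1 of the jejunum and of the ileum. Of 10 immune markers, C1qb and Cd79a were listed at 0 in all 16 libraries and C1qa and Adgre1 were above 0 in 1 library each, while Csf1r was above 0 in 7 (up to 119.97 normalized counts), Cd68 in 11, Ptprc in 12 (up to 1534) and Lyz2 in 15. In these bulk samples, fewer cells of a type and less RNA per cell cannot be told apart. A pair of jejunal libraries stood apart. The library labelled jejunum VSG replicate 1 had 264094 normalized counts over 5 ileal region genes, where the other 5 jejunal libraries had 5320 to 13354 and those of the ileum 61372 to 270694, so it carries an ileal pattern under a jejunal label. Jejunal sham replicate 1 had the highest enterocyte sum of all libraries (1431970.0, against 383989 to 623669 in the other jejunal libraries) and the lowest jejunal stem cell sum (14795, against 46428 to 64381). Jejunal fold changes are therefore given with and without these libraries, a choice made after their values were seen.

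Apob is a long gene on chromosome 12 (7977648 to 8016835, plus strand; GENCODE M21, GRCm38). Its transcript is edited in the intestine, where the enzyme Apobec1 turns a C of a CAA codon into U and so makes a stop codon, which yields the short form of apoB that chylomicrons carry. That codon is number 2179 of the 4505 coding codons of transcript Apob-202, at 48.4% of the coding sequence, in exon 26 of 29. The sequence around it is shown because it is the point at which the intestinal product of this gene ends, with the edited codon in capitals and its C at position 8008054:

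Apob editing site, chr12:8008027-8008086, plus strand: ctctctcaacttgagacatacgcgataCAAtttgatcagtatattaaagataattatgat

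The mooring sequence TGATCAGTATA, which the editing complex recognises, begins 2 bases after the edited codon. Counts per gene do not tell edited from unedited transcripts, so the form of apoB was not measured here. The 4 editing genes listed (Apobec1, A1cf, Rbm47 and Syncrip) were all above the filter in every segment, and none was called between surgeries. Apobec1, the deaminase, ranged from 767 to 2073 normalized counts after VSG in the duodenum, with 1563 and 859.5 in sham.

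Apob took a larger share of the library in the ileum than in the duodenum. Levels along the intestine are given here as CPM, each normalized count scaled by its library's total. The 3 segments were normalized in separate tables, so levels across segments are described and not tested. In the duodenum Apob ran from 417 to 1113 CPM (median 735, n = 6), in the jejunum from 613 to 2286 (median 1066, n = 6) and in the ileum from 1316 to 3126 (median 2428, n = 4). The duodenal and ileal ranges did not overlap, and in all 3 mice with every segment the ileum lay above the duodenum. In sham replicate 1 the jejunum (2286 CPM) lay above the ileum (2148 CPM). The log2 difference in level, ileum minus duodenum, was 1.67 in CPM and 0.59 on the deposited normalized counts. Apob in jejunal VSG replicate 1 was 1402 CPM, within the ileal range, and without that library the jejunal median was 881.

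Mttp (chromosome 3, 138089854 to 138144968, minus strand), whose protein is required for apoB to be lipidated at all, did not follow Apob. Its median was 1229 CPM (duodenum), 1565 (jejunum) and 885 (ileum), and the ranges of all 3 segments overlapped. The ileum held the lowest Mttp value in each of the 3 mice with every segment. The ratio of Apob to Mttp within a library, which does not depend on how the tables were scaled, was 0.339 to 0.888 in the duodenum and 1.49 to 3.59 in the ileum. Jejunal libraries had ratios of 0.530 to 0.814 except VSG replicate 1, which had 2.25. The ileal libraries thus carried more Apob than Mttp counts and the duodenal libraries fewer.

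Sar1b (chromosome 11, 51763687 to 51791925, plus strand) differed little in median along the intestine. Its median was 91.0 CPM (duodenum), 104 (jejunum) and 78.9 (ileum), with overlapping ranges. It was higher in the jejunum than in the duodenum of all 6 mice with both segments and lowest in the ileum in all 3 mice with every segment.

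**Figure D1:**
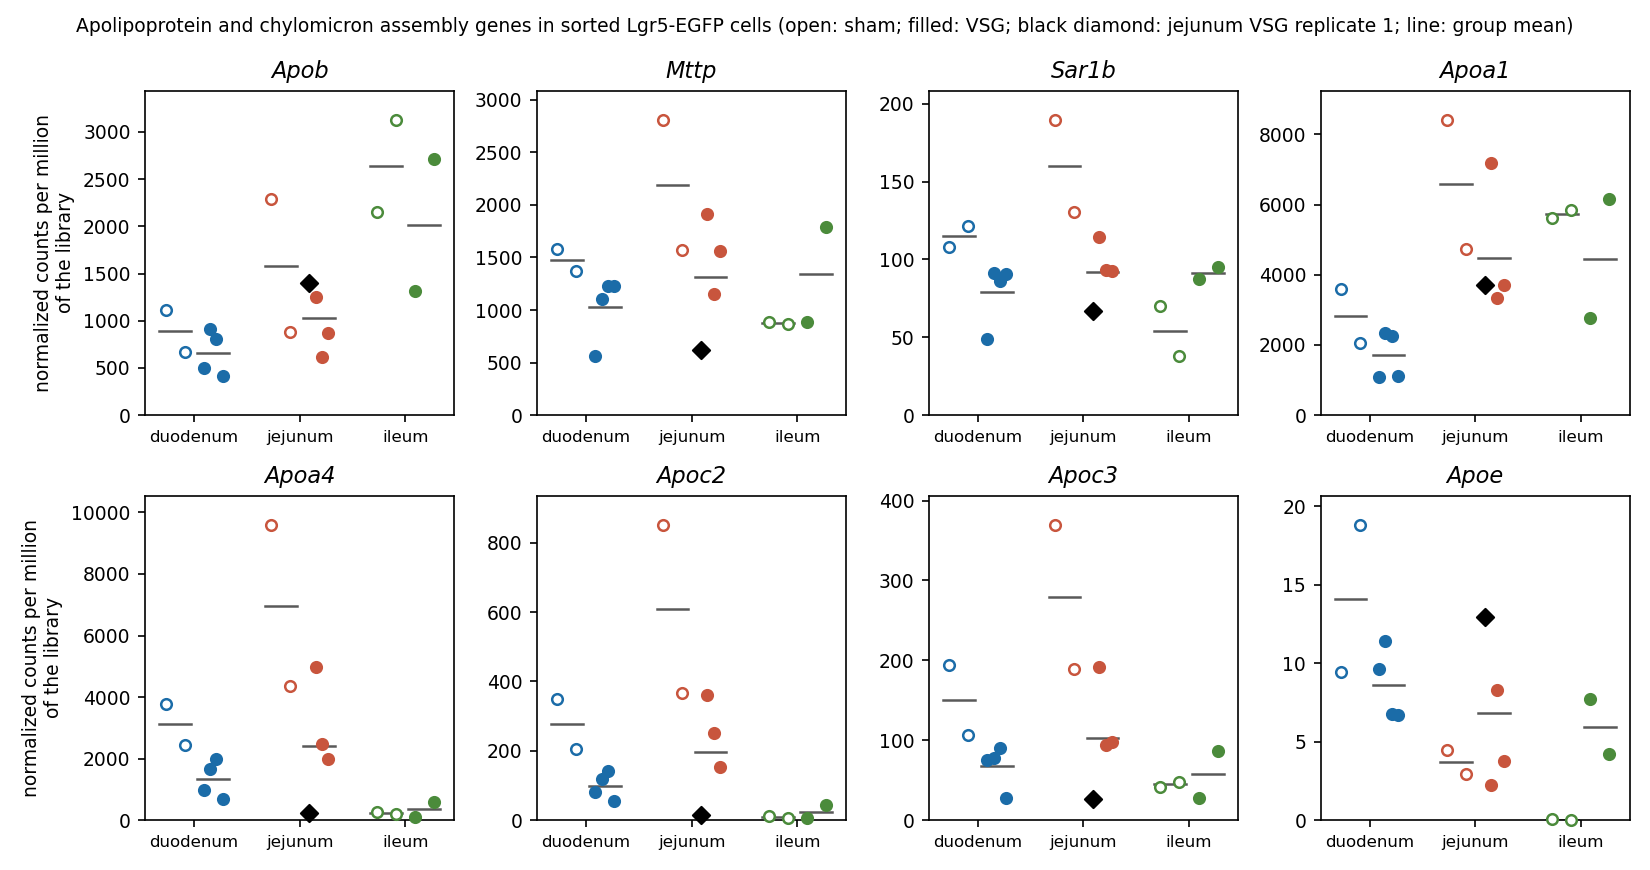
Level of each gene in each library, in CPM (y axis, linear; normalized counts scaled by the library's total), by segment (x axis). Open circles are sham libraries, filled circles VSG libraries, the black diamond is jejunal VSG replicate 1, and lines are group means. Apoa4 and Apoc2 lie near the axis in the ileum and in the diamond, while the group means of Apob are highest in the ileum.

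Among the surface apolipoproteins, 3 lie in 1 cluster of 14.9 kb on chromosome 9: Apoa1 (46228580 to 46230466, plus strand), Apoc3 (46232933 to 46235636, minus strand) and Apoa4 (46240696 to 46243459, plus strand). Apoc2 (19671579 to 19677941) and Apoe (19696109 to 19699188) lie on the minus strand of chromosome 7 within 27.6 kb. The bases in front of Apoa1, Apoa4 and Apoc2 are shown because Apoa1 held its level in the ileum and the others did not, as given below. They are the part of RefSeq's 250 bases upstream of the start that lies outside coding transcripts (GRCm38.p6, read on the gene's own strand), and capitals mark a searched motif:

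Apoa1, chr9:46228380-46228579, plus strand: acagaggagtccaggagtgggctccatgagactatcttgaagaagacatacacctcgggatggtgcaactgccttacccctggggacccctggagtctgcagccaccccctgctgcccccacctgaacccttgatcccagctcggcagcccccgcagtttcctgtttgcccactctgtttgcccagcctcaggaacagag

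Apoa4, chr9:46240594-46240695, plus strand: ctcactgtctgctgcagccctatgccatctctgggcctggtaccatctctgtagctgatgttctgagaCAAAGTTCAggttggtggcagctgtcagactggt

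Apoc2, chr7:19677942-19678082, minus strand: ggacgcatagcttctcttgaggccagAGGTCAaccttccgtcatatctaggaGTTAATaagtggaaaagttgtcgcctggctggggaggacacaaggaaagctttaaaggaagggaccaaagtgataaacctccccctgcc

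The motifs searched, on both strands, were the HNF4 cores CAAAGTTCA and CAAAGTCCA, the nuclear receptor motif AGGTCA, the HNF1 motif GTTAAT and the TATA box TATAAA. CAAAGTTCA, found in front of Apoa4, is in 0.335% of 32851 RefSeq promoters, and AGGTCA and GTTAAT, found in front of Apoc2, are in 14.02% and 6.43%. The Apoa1 stretch has none of the 5 motifs in these letters. RefSeq's table had entries for 7 of the 8 genes. Matches of this kind describe the letters only and are not binding sites.

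Apoa1, the main protein of high-density lipoprotein and also made by enterocytes, stayed high along the whole intestine. Its share was 1100.0 to 3591 CPM in the duodenum (median 2163), 3346 to 8409.5 in the jejunum (median 4224) and 2756 to 6161 in the ileum (median 5719.6). Ranges overlapped between all segments, and in all 6 mice with both segments the jejunum was above the duodenum. In the 3 mice with every segment, the ileum was above the duodenum. The log2 difference in Apoa1 level, ileum minus duodenum, was 1.35 in CPM and 0.27 on the deposited normalized counts.

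Apoa4, a protein that stabilises the growing chylomicron and is secreted after fat intake, had the opposite pattern. In the duodenum it was 675 to 3782 CPM (median 1833), in the jejunum 226 to 9591 (median 3412) and in the ileum 114 to 595 (median 222). The duodenal and ileal ranges did not overlap, and the duodenal median was 8.25 times the ileal median. The lowest jejunal value is that of VSG replicate 1, and without it the jejunal range was 1991 to 9591, above every ileal library, with a median 19.6 times the ileal one. An antisense gene, Gm10680, overlaps Apoa4 and had 13.02% to 16.4% of its normalized counts in the duodenum, 14.01% to 30.9% in the jejunum and 4.70% to 30.5% in the ileum, and the strand setting of the counting is not stated in the sources used here, so reads of the pair cannot be told apart.

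Apoc2, the cofactor of lipoprotein lipase, differed most between the proximal segments and the ileum. Its duodenal libraries ran from 54.6 to 349 CPM (median 130.1), the jejunal ones from 15.6 to 851 (median 307) and the ileal ones from 6.05 to 42.8 (median 9.62). The duodenal median was 13.5 times the ileal median and the ranges did not overlap. Jejunal VSG replicate 1 again had the lowest jejunal value, and without it the jejunal range of 152 to 851 lay above the ileum.

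Apoc3, which inhibits lipoprotein lipase and the uptake of remnants, lay between Apoa1 and Apoa4 in this respect. Its median was 83.9 CPM (duodenum), 144 (jejunum) and 45.0 (ileum). The duodenal and ileal ranges overlapped (27.3 to 194 and 27.8 to 86.6), and the jejunal range was clear of the ileum only without VSG replicate 1 (93.7 to 369).

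Apoe, the ligand by which remnants are taken up by the liver and a gene also of macrophages, was the scarcest of the 8. It ran from 6.70 to 18.8 CPM in the duodenum, 2.21 to 12.9 in the jejunum and 0 to 7.70 in the ileum. The gene was listed at 0 in ileal sham replicate 2, whose depth, estimated from the steps between low values, was the lowest of all libraries (10.9 M reads, against 21.5 M or more in the others).

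Per kb of transcript, the scale on which different genes can be compared, Apoa1 was the highest of the 8 in all 16 libraries. In the duodenum its median was 2089 CPM per kb, followed by Apoa4 (1010.1), Mttp (310.1), Apoc2 (179), Apoc3 (118), Sar1b (75.8), Apob (52.7) and Apoe (6.77). Neighbours in that order had overlapping ranges except Apob and Apoe. Within libraries the order was firmer, with Apoa1 above Apoa4 and Apoa4 above Mttp in 6 of 6 duodenal libraries. In the ileum Apoa1 (5526) stood clear of the next gene, Mttp (223), and Apob (174) came next, followed by Apoa4 (122), while Apoc2 (13.2) was above Apoe alone.

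The ratios within each library, which need no scaling, divided these genes in the same way. Apoa4 had 0.597 to 1.19 times the normalized counts of Apoa1 in the duodenum and 0.0320 to 0.0966 times in the ileum. Apoc2 had 0.0483 to 0.100 times those of Apoa1 in the duodenum and 0.00118 to 0.00695 times in the ileum. Jejunal VSG replicate 1, with ratios of 0.0609 and 0.00420, lay in the ileal range for both, and the other jejunal libraries did not (0.538 to 1.14 and 0.0411 to 0.101).

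**Figure D2:**
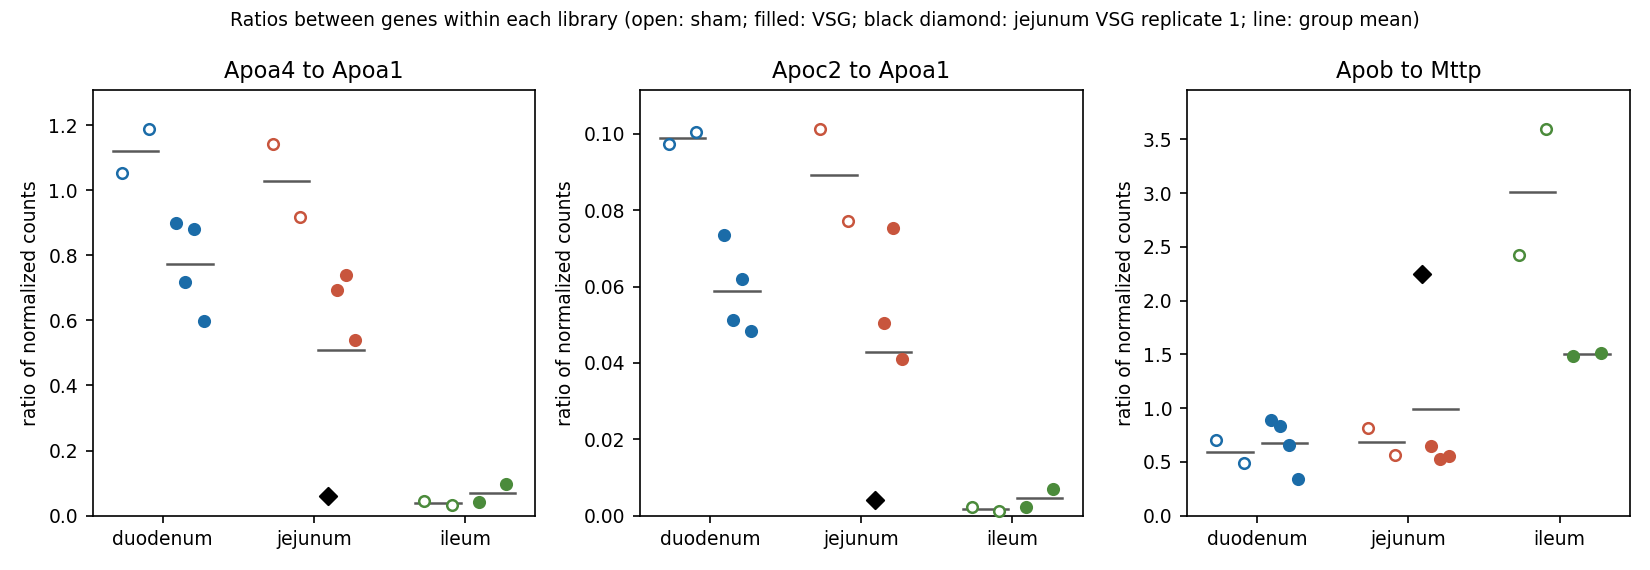
Ratios of normalized counts within each library (y axes, linear) for Apoa4 to Apoa1, Apoc2 to Apoa1 and Apob to Mttp, by segment (x axis), with open circles for sham, filled circles for VSG, a black diamond for jejunal VSG replicate 1 and lines for group means. In the duodenum all 4 VSG libraries lie below both sham libraries for the ratios to Apoa1, and the ileal libraries and jejunal VSG replicate 1 lie lowest.

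Between surgeries, the study asked which genes of these sorted cells differ after VSG in each segment. In the duodenum all 8 genes had lower means after VSG, as did 49.3% of the 16867 genes tested. Their median log2 fold change was -0.79, and that of all genes 0.01. None was called by limma, a call needing p under 0.05, adjusted p under 0.2, a mean above 50 and a log2 fold change beyond 0.5 either way, where 0.0237% of all genes were called. Every VSG library was below every sham library for 5 of the 8 genes (Apoc2, Apoa4, Apoc3, Mttp and Sar1b), and 8.01% of all genes tested had that arrangement. Of the 8, 3 had an unadjusted p under 0.05 with a lower mean, against 3.48% of all genes. The 5 genes share libraries and are not independent, and all p-values measure the spread between these mice. The enterocyte markers moved the same way, as given below.

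Apoc2 had 3835, 5651, 6588 and 2562 normalized counts in duodenal VSG replicates 1 to 4 and 18069 and 9896 in sham replicates 1 and 2. No VSG library reached either sham library. The means were 4659 ± 1806 (SD, n = 4) and 13983 ± 5779 (SD, n = 2), a log2 fold change of -1.61 ± 0.40 (SE; limma p = 0.00268, adjusted p = 0.456; exact permutation p = 0.0667, the smallest that 4 libraries against 2 allow, two-sided).

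Apoa4 was 46959.6, 78909, 93539 and 31652 in the VSG libraries, against 195722 and 117097 after sham surgery. All VSG values were again below both sham values. The log2 fold change was -1.40 ± 0.44 (SE; limma adjusted p = 0.560; exact permutation p = 0.133).

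Apoc3 was 3579, 3652, 4242 and 1278 after VSG and 10036 and 5114 after sham surgery. Its log2 fold change was -1.30 ± 0.49 (SE; limma adjusted p = 0.666). Apoc3 is also among the enterocyte markers that the study names for these samples, so its direction is not independent evidence.

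The assembly genes differed less. Sar1b was 2336, 4314, 4027 and 4251 after VSG and 5595 and 5825 in the sham libraries, with a log2 fold change of -0.66 ± 0.30 (SE; limma adjusted p = 0.802). Mttp was 26785, 52142, 57406 and 57806 after VSG and 82008 and 65604 in sham, with a log2 fold change of -0.66 ± 0.34 (SE; limma adjusted p = 0.848). For both genes VSG replicate 1 was far below the other VSG libraries.

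Apob, Apoa1 and Apoe overlapped between the surgeries in the duodenum. Apob had 23792, 43324, 37594 and 19570.5 normalized counts after VSG and 57618 and 32012 in sham, so sham replicate 2 lay among the VSG libraries. Apoa1 had 52216 to 110139 after VSG and 98616 and 185844 in sham, and Apoe 314 to 538 after VSG and 488 and 902 in sham. Their log2 fold changes were -0.54 ± 0.37, -0.84 ± 0.42 and -0.75 ± 0.56 (SE; limma adjusted p between 0.835 and 0.880).

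**Figure D3:**
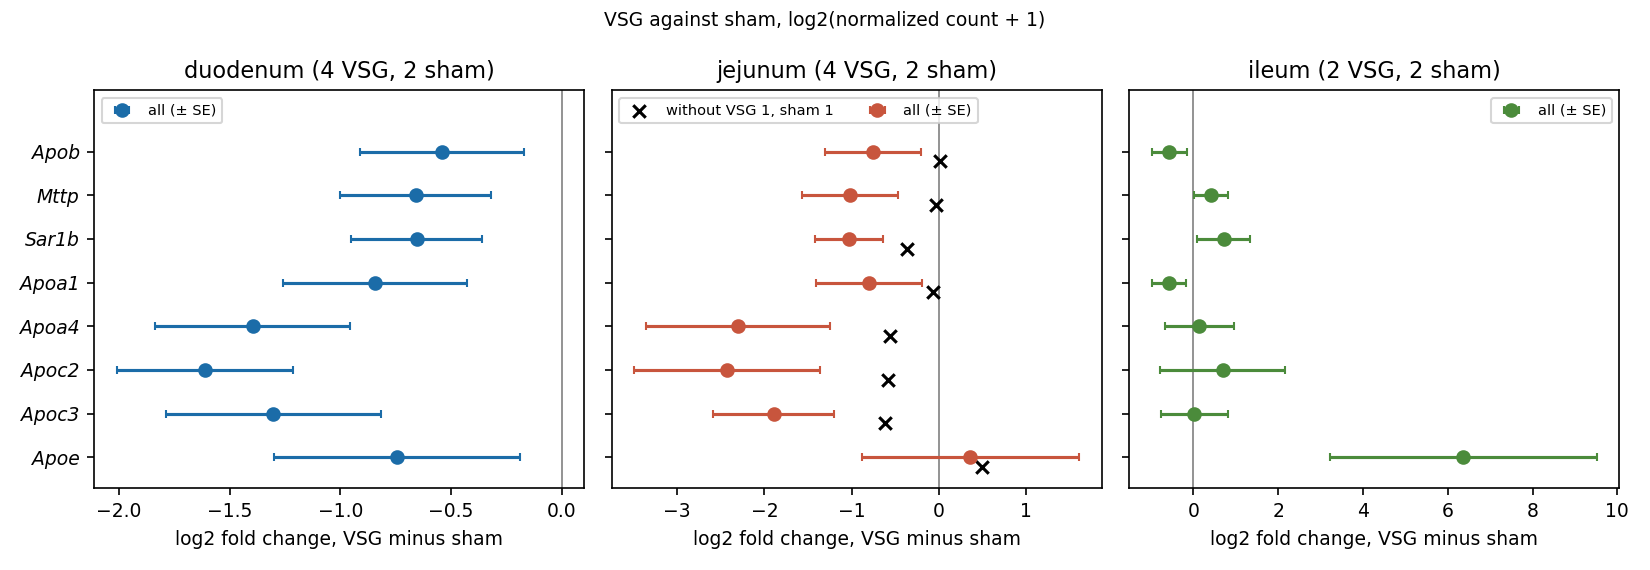
Log2 fold change of VSG minus sham for each gene (x axes, log2 scale of normalized count + 1, with a different range in each panel) by segment, with bars for the limma standard error. Crosses in the jejunum leave out VSG replicate 1 and sham replicate 1, so 1 sham library remains. All 8 duodenal values lie below 0, and the jejunal crosses lie near 0 for Apob, Mttp and Apoa1.

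In the jejunum 7 of the 8 genes had lower means after VSG, as did 45% of the 15857 genes tested. Their median log2 fold change was -1.02, against 0.11 for all genes. None was called, where 0.0126% of all genes were, 3 had an unadjusted p under 0.05 with a lower mean (2.4% of all genes), and 1 gene (Sar1b) had every VSG library below both sham libraries, an arrangement of 6.21% of all genes. The values rest on the libraries that stood apart. The median was -0.90 without VSG replicate 1, -0.44 without sham replicate 1 and -0.22 without both. In the last case 6 of 8 genes were below 0, as were 7790 of the 15857 genes tested. Each setting without sham replicate 1 leaves 1 sham library in the jejunum, so its values rest on 1 sham mouse.

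Apoa4 was 7550.0, 171305, 84818 and 67394 in jejunal VSG replicates 1 to 4, and the sham values were 451774 and 146707. VSG replicate 2 lay above sham replicate 2, so the groups overlapped. The log2 fold change of -2.30 ± 1.05 (SE; limma adjusted p = 0.760) became -0.56 without VSG replicate 1 and sham replicate 1.

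Apoc2 was 521, 12473, 8662 and 5146 after VSG and 40099 and 12354 in sham, and Apoc3 was 904, 6599, 3215 and 3329 after VSG and 17399 and 6366 in sham. In each, VSG replicate 2 exceeded sham replicate 2. Their log2 fold changes of -2.43 ± 1.06 and -1.90 ± 0.69 (SE; limma adjusted p = 0.760 in each) became -0.59 and -0.62 without the libraries that stood apart.

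Sar1b was 2239, 3946, 3200.1 and 3142 in the VSG libraries, against 8925 and 4386 after sham surgery. Sar1b was thus without overlap in both proximal segments. Its log2 fold change was -1.03 ± 0.39 (SE; limma adjusted p = 0.760; exact permutation p = 0.0667), -0.51 without sham replicate 1 and -0.36 without VSG replicate 1 and sham replicate 1.

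Apoa1, Apob and Mttp had jejunal log2 fold changes of -0.80, -0.76 and -1.02, which moved to -0.07, 0.01 and -0.03 without these 2 libraries. Mttp in VSG replicate 4 and in sham replicate 2 was 52859 normalized counts in each. Apoe was 433, 76.3, 286 and 127 after VSG and 209.7 and 99.9 in sham, the only gene with a higher mean after VSG (log2 fold change 0.36 ± 1.25, SE; limma adjusted p = 0.937). Its highest value was VSG replicate 1, and its log2 fold change was -0.04 without that library.

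In the ileum the design is 2 libraries against 2, in which no exact permutation p can go below 0.333. No gene of the 8 was called and none had an unadjusted p under 0.05. Over the 13853 genes tested limma called 0 (0%), and 455 (3.28%) had an unadjusted p under 0.05. The means of 6 genes were higher and of 2 (Apob and Apoa1) lower after VSG, and 43% of all genes were lower. The median log2 fold change of the 8 was 0.28, against 0.24 over all genes. VSG replicates 4 and 5 were unlike each other for most members, with Apoa4 at 2518 and 13083, Apoc2 at 133 and 941 and Apoc3 at 613 and 1904. The sham values lay between them in each of these, at 6444 and 4195, 309 and 155, and 1053 and 1075. Without VSG replicate 5 the median was -0.76 and without VSG replicate 4 it was 0.88.

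Apoe was 169 and 92.6 normalized counts in the ileal VSG libraries, against 1.33 and 0 after sham surgery. Both VSG values were above both sham values, which 17% of all genes tested showed. The log2 fold change was 6.37 ± 3.15 with a pseudocount of 1 and 3.67 ± 2.07 with a pseudocount of 10 (SE; limma adjusted p = 0.736 and 0.815), so its size is set by the pseudocount. The 10 immune markers summed to 90.7 and 374 in the VSG libraries and to 3.49 and 0 in the sham libraries. Among them C1qa, C1qb, C1qc, Adgre1, Csf1r, Cd3e and Cd79a were listed at 0 in all 4 libraries, and Cd68 was below the filter. Ptprc and Lyz2, the 2 that passed the filter there, had higher means after VSG (median log2 fold change 4.81), 1 of them without overlap. Ptprc was listed at 0 in VSG replicate 4, which had the higher Apoe value, and in both sham libraries. Its higher mean rests on VSG replicate 5 alone, at 185. The part of immune cells and of sham depth in this difference was not tested.

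Sar1b was the other gene without overlap in the ileum, at 1929 and 2092 after VSG and 1752 and 849 in sham. Its log2 fold change was 0.72 ± 0.63 (SE; limma adjusted p = 0.736), of the opposite sign to the duodenum and the jejunum. Ileal libraries also differed in makeup between the surgeries. All 5 ileal region genes had every VSG library below both sham libraries, against 11.6% of all genes. Of 8 stem cell markers, 7 had higher means after VSG (median log2 fold change 2.57). The part of this makeup in the ileal values was not tested. Mttp was 19456 and 39393 after VSG and 22156 and 19561 in sham, with the sham libraries inside the VSG range.

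The difference between jejunum and duodenum was tested within mice, by comparing the change from duodenum to jejunum in VSG and sham mice for 14718 genes. Limma called none (0%), and 604 (4.1%) reached an unadjusted p under 0.05. Among the 8 genes the differences ran from -0.91 (Apoa4, SE 0.99) to 1.11 (Apoe, SE 1.36), with unadjusted limma p between 0.376 and 0.927. Without VSG replicate 1 the Apoa4 difference was -0.08 (SE 0.54), and without sham replicate 1 it was -0.47 (SE 1.37). The intervals are wide, so the duodenal and jejunal fold changes were not shown to differ or to be alike.

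The enterocyte markers differed between the surgeries in the same direction as the 8 genes. The 12 markers, among them the brush border genes Sis, Alpi, Lct and Vil1, all had lower means after VSG in both proximal segments, with duodenal and jejunal median log2 fold changes of -0.87 and -0.97, and none was called. In the jejunum, without VSG replicate 1 and sham replicate 1, 7 of the 12 were lower with a median of -0.11. Tuft, goblet and stem cell markers mostly differed the opposite way, and other lists were mixed. Of 8 enteroendocrine markers, 7 had higher means in the duodenum and 4 in the jejunum. For 6 proliferation markers these counts were 3 and 5. Stroma and endothelium markers had lower means for 6 of 8 tested in the duodenum (median log2 fold change -3.12) and 1 of 4 in the jejunum. All 5 tuft cell markers tested in the duodenum and all 6 in the jejunum had higher means after VSG (median log2 fold changes 1.39 and 2.78). Of these, 5 and 3 had an unadjusted limma p under 0.05. Over all genes tested, 1057 of 16867 (duodenum) and 957 of 15857 (jejunum) did, in either direction. Higher means after VSG were also found for all 7 goblet markers in each (0.57 and 1.3) and for 7 and 8 of the 8 stem cell markers (0.23 and 0.97). In the jejunum, without VSG replicate 1 and sham replicate 1, the medians were -0.04 for tuft, 0.50 for goblet and -0.10 for stem cell markers. None of these markers was called, and their part in the values of the 8 genes was not tested. The 8 genes summed to 41.9% to 80.4% of the 12 markers in duodenal VSG libraries and to 61.7% and 66.3% in the sham libraries, so the groups overlapped (exact permutation p = 0.6). In the jejunum the range was 44.0% to 88.4% after VSG, or 58.5% to 88.4% without VSG replicate 1, and 80.6% and 80.9% in sham.

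Taken one by one against the enterocyte sum, no gene of the 8 kept its VSG libraries clear of the sham libraries in the duodenum. Apoc2 was 0.629% to 1.93% of the sum after VSG and 1.82% and 2.16% in sham, and Apoa4 7.77% to 23.6% after VSG and 21.6% and 23.4% in sham. In the jejunum Apoa4, Apoc2 and Apoc3, whose normalized counts overlapped between the surgeries, were lower relative to the sum in all 4 VSG libraries than in both sham libraries (exact permutation p = 0.400 for Apoa4 and Apoc2 and 0.267 for Apoc3). Their log2 differences relative to the sum were -1.48, -1.61 and -1.07, and -0.51, -0.53 and -0.57 without VSG replicate 1 and sham replicate 1. How far enterocyte content accounts for the lower values was not tested.

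**Figure D4:**
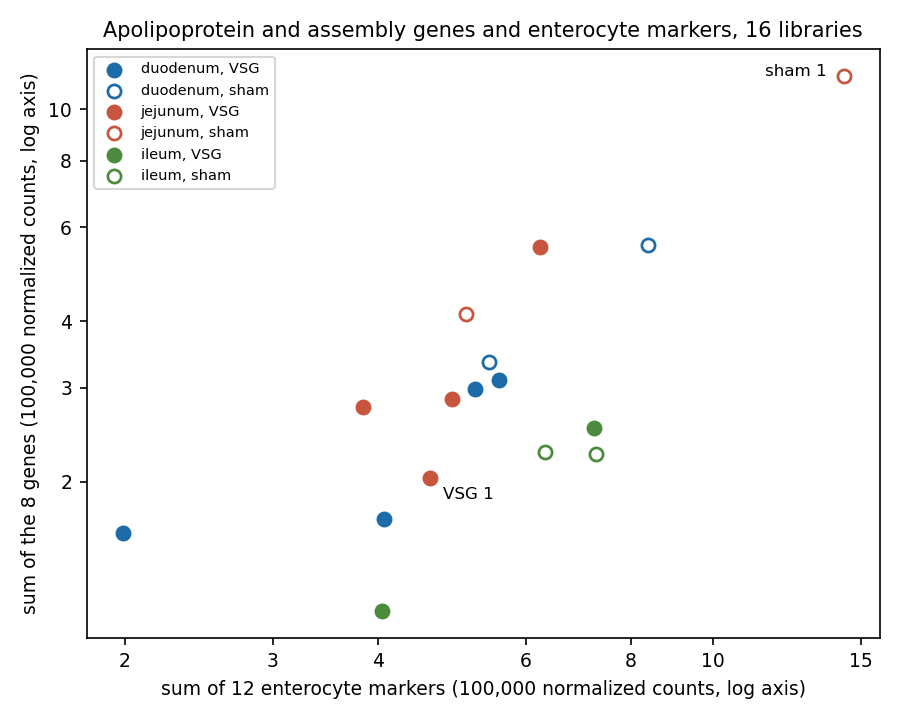
Sum of the 8 genes (y axis) against the sum of the 12 enterocyte markers (x axis) in 16 libraries, both in normalized counts on log axes, with colour for segment, filled circles for VSG and open circles for sham. Jejunal sham replicate 1 lies at the upper end of both axes, and duodenal VSG replicate 1 has the lowest enterocyte sum and the lowest duodenal sum of the 8 genes.

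Ratios between the 8 genes cancel any factor that acts on both genes alike. In the duodenum Apoa4 had 0.597 to 0.899 times the counts of Apoa1 after VSG and 1.05 and 1.19 times in sham, without overlap (log2 difference -0.55; exact permutation p = 0.133). Apoc2 had 0.0483 to 0.0734 times the counts of Apoa1 after VSG and 0.0972 and 0.100 times in sham (log2 difference -0.77; exact permutation p = 0.0667, the smallest possible). Apoc3 to Apoa1 overlapped there, at 0.0241 to 0.0685 after VSG and 0.0519 and 0.0540 in sham (exact permutation p = 0.333). In the jejunum Apoa4 to Apoa1 was 0.0609 to 0.739 after VSG and 0.917 and 1.14 in sham (log2 difference -1.51; exact permutation p = 0.333). That difference was -0.65 without VSG replicate 1 (exact permutation p = 0.100, the smallest that 3 against 2 allow) and -0.50 without VSG replicate 1 and sham replicate 1. For Apoc2 to Apoa1 the jejunal log2 difference was -1.63 (exact permutation p = 0.333), -0.71 without VSG replicate 1 (exact permutation p = 0.2) and -0.52 without VSG replicate 1 and sham replicate 1, with 0.0754 the highest VSG and 0.0772 the lowest sham ratio. For Apoc3 to Apoa1 it was -1.10 (exact permutation p = 0.267), -0.63 and -0.56. In the ileum the log2 differences were above 0, at 0.72 for Apoa4, 1.27 for Apoc2 and 0.60 for Apoc3 to Apoa1, with overlap for Apoa4 and Apoc2. Apob to Mttp overlapped between the surgeries in the duodenum and the jejunum (exact permutation p = 0.933 in each). The ileal Apob to Mttp ratios were 1.49 and 1.51 after VSG and 2.42 and 3.59 in sham (exact permutation p = 0.333, the smallest possible there). The duodenal and jejunal libraries come from the same mice, so the second segment is not a second set of animals.

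Of the other genes of the pathway, none was called in any segment. Of 11 measured genes of triglyceride supply, 6 had an unadjusted p under 0.05 in the duodenum and 2 in the jejunum, all with lower means, where 3.48% and 2.4% of all genes did, and none did in the ileum. All 11 had lower means in the duodenum, as did 9 in the jejunal and 7 in the ileal table, and 8 had every duodenal VSG library below both sham libraries, against 8.01% of all genes. The medians were -0.78, -1.02 and -0.26 (log2) along the segments, and the jejunal one was 0.11, with 4 of 11 lower, without VSG replicate 1 and sham replicate 1. Fabp2, the intestinal fatty acid binding protein, was 29584 to 48847 normalized counts in duodenal VSG libraries and 87993 and 108029 in sham (log2 fold change -1.50 ± 0.27, SE; limma adjusted p = 0.292). It was also without overlap in the jejunum, at 53344 to 85495 against 116257 and 267973, and in the ileum, at 41682 and 83780.0 against 102229 and 112197. Cd36, a fatty acid transporter, was 608 to 1149 after VSG and 1817 and 2401 in sham in the duodenum (limma adjusted p = 0.533), and Slc27a4, another transporter, 6044 to 11503 against 14972 and 21659 (limma adjusted p = 0.544). Fabp1, the liver-type binding protein, was 7369 to 74716 in the jejunum after VSG and 77895 and 192439 in sham. Without VSG replicate 1 and sham replicate 1 the jejunal log2 fold changes moved from -1.36 to -0.86 for Fabp2 and from -1.78 to -0.37 for Fabp1.

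Of 23 assembly and COPII partners measured, 17 had lower means in duodenum, 19 in jejunum and 12 in ileum, with 1, 1 and 0 at an unadjusted p under 0.05. Of all genes, 49.3%, 45% and 43% had lower means and, in duodenum and jejunum, 3.48% and 2.4% had a lower mean at that p. Without VSG replicate 1 and sham replicate 1, 12 of the 23 were lower in the jejunum. Sec24d, a cargo-binding subunit of the COPII coat, was 2128 to 4274 in duodenal VSG libraries and 6799.8 and 6978 in sham (log2 fold change -1.22 ± 0.32, SE; limma adjusted p = 0.485). Surf4, a cargo receptor for lipoproteins, was 13656 to 17873 against 18076 and 26063. In the jejunum P4hb, the partner subunit of Mttp, was 48508 to 87361 after VSG and 91780.4 and 145827 in sham (limma adjusted p = 0.760), with a log2 fold change of -0.81, or -0.33 without VSG replicate 1 and sham replicate 1, and Pla2g12b and Sec13 were also without overlap. In the ileum 4 of the 23 had every VSG library above and 3 every VSG library below both sham libraries, against 17% and 11.6% of all genes. Bet1 was among those above, and Sec24b and Sec23b among those below.

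The transcription factors of lipid absorption were split, with lower means for 11 of 17 in duodenum, 8 in jejunum and 4 in ileum, of which 1, 4 and 0 had an unadjusted p under 0.05 (3.48% and 2.4% of all genes in duodenum and jejunum). In the jejunum 4 factors had every VSG library below and 3 every VSG library above both sham libraries, against 6.21% and 6.59% of all genes. Ppara, the fatty acid sensor, was 229 to 1440.4 in duodenal VSG libraries and 1674 and 7862 in sham, and 449 to 1268 against 1624 and 3488 in the jejunum (limma adjusted p = 0.613 and 0.760). Ppargc1a, a coactivator, was 517 to 2290.3 in the jejunum after VSG and 4044 and 4834 in sham. Without VSG replicate 1 and sham replicate 1 the jejunal log2 fold changes of Ppara and Ppargc1a were -0.83 and -1.31, against -1.64 and -1.85 with all libraries. Of 10 receptors and efflux genes tested, 5, 4 and 6 had lower means along the segments. Among them Abca1, which loads lipid onto apoA-I, was 669.9 to 2329 in the jejunum after VSG and 3205 and 3309 in sham (log2 fold change -1.75, or -1.59 without VSG replicate 1 and sham replicate 1; limma adjusted p = 0.760 with all libraries).

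The other apolipoproteins summed to 7498 to 30469.8 normalized counts per library. Of 18 listed, 11 passed the filter in duodenum, 13 in jejunum and 6 in ileum, and Apoa5, Apoc1, Apoc4, Apod, Apof, Saa1 and Saa2 were listed at 0 in all 6 duodenal libraries. Apoa5, a further gene of the cluster with Apoa4, was listed at 0 in all 4 jejunal VSG libraries and was 261 and 32.9 in the sham libraries. Apoh was listed at 0 in both jejunal sham libraries and was 18.8 to 209 after VSG. The hepatocyte marker Alb, which would come with liver RNA, was 0 to 438 normalized counts across the 16 libraries.

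Across the 16 libraries, with each gene centred on its segment's mean, Apoa4, Apoc2 and Apoc3 moved together most closely, with Pearson's r of 0.99 for Apoa4 with Apoc2, 0.96 for Apoa4 with Apoc3 and 0.94 for Apoc2 with Apoc3. Apoa1 was closest to Apob (0.86), although Apoa1 shares its cluster with Apoa4 (0.71). All these values include jejunal VSG replicate 1, with Apoa4 at 226 CPM, against 1991 to 9591 in the other jejunal libraries. Its Apoa1 was 3701 CPM, against 3346 to 8409.5 in the others. Correlations without that library were not computed, so how far this contrast rests on it is not known. Apoe had negative correlations with 6 of the other 7 genes. The genes most like the mean of the 8, among 10704 others with a mean above 50 in every segment, were Treh (0.96), a brush border trehalase that is also in the enterocyte list, Asah2 (0.96), Cyp4v3 (0.96), Rdh7 (0.94) and Cda (0.93). These are descriptions over libraries that share mice, depth and cell makeup.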

How the data were processed

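GFP+ cells of 3 intestinal segments of 7 mice had been sequenced by the authors as polyA RNA (NEBNext Ultra II Directional, single end, 85 nt). The authors processed reads with STAR 2.5.3a, Salmon 0.6.0 and DESeq2 on mm10, and left out 1 sham library per segment and 2 ileal VSG libraries for low mapping. The values the authors deposited are a signal, normalized counts from DESeq2 size factors, with 1 table per segment. Only 75.0% to 93.0% of the low values were whole multiples (tolerance 0.02) of the value of 1 read, so no count test was run. The steps imply 10.9 to 63.6 M reads per library. The authors' differential tables (log2 fold change, its error and p-values of VSG against sham) were not used. How strand entered the counting is not given in the sources used here.

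Genes with a mean above 10 were tested within each segment on log2(normalized count + 1) with limma 3.58.1 (trend, R 4.3.3) and Benjamini-Hochberg adjustment over all genes tested. A gene was called at p under 0.05, adjusted p under 0.2, a mean above 50 and a log2 fold change beyond 0.5 either way. Fold changes on this scale understate those of low genes. Exact permutation tests of the difference in mean log2 values were two-sided. The 8 genes, the pathway lists and the markers were chosen with earlier results of these data known. All 8 genes are named. From each pathway list, the genes named are up to 3 per segment with the lowest p among those without overlap between the surgeries. Some genes of these lists are not reported here by name. Shares are CPM, computed here as the normalized count scaled by the library total, and lengths are those of the longest coding transcript in GENCODE M21. The fits were tested on simulated data.

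Same-numbered VSG and sham libraries are different mice. Their deviations from the group means had correlations of -0.0489 and -0.0263 in the duodenum and 0.0543 and 0.00995 in the jejunum, so the number was not used to pair surgeries. Alternatives were other pseudocounts, filters, scalings and thresholds, limma without a trend, a block for the replicate number and the omission of each library in turn.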

Additional observations from a re-analysis of the deposited data

Results flagged for a closer look

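In 4 of the 16 groups of 4 libraries examined, 1 library lay far from the other 3. Groups of the same segment are different genes in the same VSG libraries and are not independent. The count therefore cannot be set against a chance rate. Apoc3 in duodenal VSG replicate 4 was 1278 normalized counts, the lowest of its group, with a gap to the next of 0.858 of the group's range. Mttp in duodenal VSG replicate 1 was 26785 (0.866 of the range), and Sar1b in the same library was 2336 (0.888). That library also had the lowest enterocyte marker sum of all 16, 198875 normalized counts. Apoa1 in jejunal VSG replicate 2 was 247397, the highest of its group (0.887 of the range).

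Sar1b had every VSG library below the sham libraries in the duodenum (log2 fold change -0.66) and the jejunum (-1.03) and above them in the ileum (0.72). The difference between segments was not tested, since the ileal table was normalized separately and only 1 VSG mouse has all segments.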

How the results depend on the processing

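No call of the 8 genes was made in the duodenum under any alternative run. The number of genes called over the whole table depended on the settings. In the duodenum 4 genes were called, 0 at adjusted p under 0.05, with a pseudocount of 0.5, with no filter, with a mean above 50 or with equal totals, 10 with a pseudocount of 10 and 43 without a trend, and 0 to 259 when 1 library was left out (259 without sham replicate 1). In the jejunum 2 were called, 1 at adjusted p under 0.05, 61 without a trend, 48 without VSG replicate 1 and sham replicate 1, and 1 to 2710 when 1 library was left out (2710 without sham replicate 2). In the ileum 0 were called, 3 with a pseudocount of 10, 463 without a trend, and 0 to 631 when 1 library was left out. For jejunum minus duodenum 0 were called, 10 without a trend and 0 to 815 when 1 library was left out (815 without sham replicate 2). With the replicate block, 0 genes were called in either proximal segment, and the median of the 8 genes was -0.91 (duodenum) and -1.12 (jejunum). That fit rests on replicates 1 and 2 of each surgery, since VSG replicates 3 and 4 have no sham library of their number. In the jejunum these include the libraries that stood apart.

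When 1 library was left out, the median of the 8 genes was -1.13 to -0.74 in the duodenum, -1.68 to -0.44 in the jejunum and -0.76 to 0.88 in the ileum, and it was -0.22 in the jejunum without VSG replicate 1 and sham replicate 1. The median difference in level between ileum and duodenum was -0.57 (log2), -1.65 on the deposited normalized counts and -1.40 in sham libraries alone. When 1 library was left out, log2 fold changes in the jejunum ran from -1.69 to 0.17 for Apob and from -0.17 to 0.89 for Apoe, and in the ileum from -1.05 to 1.33 for Apoa4, -0.72 to 2.10 for Apoc2, -0.80 to 0.84 for Apoc3 and -0.10 to 0.92 for Mttp. Apob in the jejunum was 0.17 without sham replicate 1 and 0.0089 without VSG replicate 1 and sham replicate 1. Apoe in the jejunum was -0.027 with quantile normalization, -0.04 without VSG replicate 1 and -0.17 without sham replicate 2. In the ileum, without VSG replicate 5, Apoa4 was -1.05, Apoc2 -0.72, Apoc3 -0.80 and Mttp -0.10, Apoa4 was -0.17 without sham replicate 2, and quantile normalization gave -0.073 for Apoc2 and -0.075 for Apoc3. Apob (adjusted p = 0.172) and Sar1b (0.0931) were called by limma in the jejunum without sham replicate 2, where 17.4% of all genes were called, and Apoe in the ileum without a trend (0.145; 3.34% of all genes) and without VSG replicate 5 (0.164; 4.63%). Fits that leave 1 library in a group assume that it varies like the others. The cause was not tested. Equal totals moved the median of all genes from 0.11 to 0.34 in the jejunum and from 0.24 to 0.35 in the ileum. With 2 sham mice per segment precision is low throughout; Apoe in the ileum rests on sham libraries of 21.5 and 10.9 M reads.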
